A study of Homo sapiens with 6 samples.

Results

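The genes described here encode the subunits of the transcription factor NF-kB, and the IkB proteins and A20, which are grouped as its inhibitors. They are 10 of the 58735 genes in the deposited count table, taken by their gene names. The canonical subunits are RELA, REL and NFKB1, and the non-canonical subunits are RELB and NFKB2. The inhibitors are NFKBIA, NFKBIB, NFKBIE and NFKBIZ, and TNFAIP3, which encodes A20. NFKBIZ is grouped with them as a nuclear IkB, although its product also acts as a cofactor for genes such as IL6. All 10 had enough reads to be tested, as 15550 genes did. The family was chosen on fold changes and adjusted p-values already known from this same contrast, PQ+SS-31 against PQ, so the fold changes and calls given for these genes are a description and no independent evidence. RNA was sequenced from A549 cells, an established human lung adenocarcinoma line, in 2 groups of 3 libraries, both labelled 48 h. The PQ group was given paraquat, a redox-cycling herbicide that makes cells produce superoxide, and the PQ+SS-31 group was given paraquat together with SS-31, a peptide that targets mitochondria and binds cardiolipin. All 6 libraries thus had paraquat, and what paraquat itself does to these genes cannot be read from them, since untreated cells were not analysed here. Doses are not given in the sources used here, and the labels do not say whether the 3 replicates of a group came from separate cultures. The p-values therefore reflect the spread among these libraries, which may be technical.

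Total counts per library ran from 16332061 to 17576827. The 6 epithelial markers summed to 1652 to 1899 CPM with PQ and 2324 to 2697 CPM with PQ+SS-31. CPM are reads of a gene relative to the TMM-scaled library total, TMM being edgeR's trimmed-mean scaling. Most of that sum was the keratins KRT8, at means of 1356 and 1939 CPM, and KRT18, at 408 and 562 CPM. KRT19 (14.9 and 12.7 CPM), CLDN4 (12.4 and 16.3 CPM) and EPCAM (0.597 and 0.702 CPM) were far lower. So was CDH1 (13.6 and 24.4 CPM), the 1 of the 6 called higher by edgeR. The labels call the line alveolar epithelial, and the 8 alveolar type II markers summed to 105 to 137 CPM with PQ and 94.9 to 121 CPM with PQ+SS-31. Most of that was ABCA3, a lamellar body transporter, at 119 ± 17.8 and 108 ± 14.5 CPM (SD, n = 3), with LAMP3 at 5.31 ± 0.803 and 2.55 ± 0.570 CPM. The 5 surfactant protein genes averaged at most 0.272 CPM in either group, and the alveolar factor NKX2-1 was at 0 in every library. CDKN2A, which A549 cells have lost, was also at 0 in every library. Leukocyte markers summed to 6.70 to 9.43 CPM with PQ and 10.2 to 11.8 CPM with PQ+SS-31. Most of that was CD14, at means of 4.31 and 6.30 CPM, and ITGAM, at 3.74 and 4.16 CPM. For CD14 every PQ+SS-31 library lay above every PQ library (edgeR adjusted p = 0.287). CD3E and LYZ were at 0 in every library and PTPRC at 0 in every PQ library. The 7 fibroblast and endothelial markers summed to 10.6 to 17.4 CPM with PQ and 12.1 to 21.2 CPM with PQ+SS-31, mostly COL1A1 (means of 12.1 and 13.5 CPM). The first principal component of log2 CPM, with 39.4% of the variance, cut across the groups, with positive scores for replicate 3 of PQ (32.4) and replicates 1 and 3 of PQ+SS-31 (16.8 and 12.5) and negative scores for replicates 1 and 2 of PQ (-15.9 and -31.5) and replicate 2 of PQ+SS-31 (-14.3). The part of these differences in the NF-kB results was not tested.

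NF-kB is a family of dimeric transcription factors that share a Rel homology region for DNA binding. In the canonical pathway, dimers of RELA or REL with p50, made from the NFKB1 product p105, wait in the cytoplasm bound to IkB proteins until the IKK kinase complex marks those for destruction. In the non-canonical pathway, the kinase NIK and IKKα trigger processing of the NFKB2 product p100 to p52, which pairs with RELB. Several of the genes for subunits and inhibitors are themselves NF-kB targets, which makes feedback loops. In airway epithelium NF-kB is known for driving chemokine and cytokine genes. Transcript levels say nothing of where the proteins are in the cell, and neither protein nor DNA binding was measured here.

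The promoters of this family are shown first because several of these genes are themselves NF-kB targets, and kB sites in promoters are 1 place where NF-kB can bind. RefSeq promoter windows (GRCh38.p14, 250 bases before each annotated start) were found for 8 of the 10 genes, that is for all but RELB and NFKBIE. A 10-base kB-like pattern, GGG, then any 2 bases, then TTTCC, was searched on both strands. It occurred before a start in 7 of the 8, namely REL, NFKB1, NFKB2, NFKBIA, NFKBIB, NFKBIZ and TNFAIP3. Of all 35116 windows in the table, 1.73% held it, and by gene the share was 2.12% of 27305 symbols. By window the family's count was 8 of 14, since several genes have more than 1 start. A match is a run of letters, not a measured binding site. RELA, without a match to this pattern, may have sites of other letters or outside these windows. The 250 bases before the NFKBIA start (chr14:35404750-35404999, minus strand) are given whole because IkBα is the textbook NF-kB feedback gene, with the matching letters in capitals here and in the list after it.

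NFKBIA: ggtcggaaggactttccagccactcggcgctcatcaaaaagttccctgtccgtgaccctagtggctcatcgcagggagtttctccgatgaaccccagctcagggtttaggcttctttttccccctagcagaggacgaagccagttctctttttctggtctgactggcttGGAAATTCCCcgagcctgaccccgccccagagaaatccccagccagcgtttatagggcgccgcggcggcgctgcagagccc

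For the other genes with a match, the 10 letters are shown with 10 bases on either side. The outermost NFKB2 window, before its first annotated start (chr10:102393860-102394109), holds no match. Upstream and downstream below name the NFKB2 starts that have one. The stretches lie at chr4:102501300-102501329 (NFKB1), chr10:102394490-102394519 and chr10:102395674-102395703 (NFKB2, at different starts), chr2:60881518-60881547 (REL), chr19:38899931-38899960 (NFKBIB), chr3:101827757-101827786 (NFKBIZ), and chr6:137867182-137867211 and chr6:137867194-137867223 (TNFAIP3, overlapping stretches), all on the plus strand.
NFKB1: cgacgtcagtGGGAATTTCCagccaggaag
NFKB2, upstream start: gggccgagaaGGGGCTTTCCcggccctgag
NFKB2, downstream start: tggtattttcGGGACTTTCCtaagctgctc
REL: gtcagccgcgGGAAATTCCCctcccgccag
NFKBIB: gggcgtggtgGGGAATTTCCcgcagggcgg
NFKBIZ: tttttggtctGGGAATTTCCagtgtgcaga
TNFAIP3, outer: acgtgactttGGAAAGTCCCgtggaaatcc
TNFAIP3, inner: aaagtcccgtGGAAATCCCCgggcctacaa
NFKB1, NFKBIB and NFKBIZ carried the same 10 letters, GGGAATTTCC, and NFKBIA and REL carried their reverse complement, GGAAATTCCC. The match began 49 bases before the start in NFKB1, 81 in NFKBIA, 28 in NFKBIB and 223 in NFKBIZ. A pair of matches stood 67 and 55 bases before the start of TNFAIP3. A looser form, GGG and CC with any 5 bases between them, occurred in all 8 genes, but also in 57.8% of all symbols, and overlaps the stricter one. The shorter letters GGGNNTTCC occurred in 3 of the 8 (NFKB2, NFKBIZ and TNFAIP3) and in 7.01% of symbols, partly at the same bases. The AP-1-like letters TGANTCA occurred in 1 of the 8, NFKBIB, and in 8.06% of symbols.

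Levels are compared between genes as TMM-scaled CPM per kilobase of the deposited gene length. NFKBIA, encoding IkBα, the fast-resynthesised inhibitor that binds RELA dimers, stood highest, with a mean over the 6 libraries of 114 CPM per kilobase and a range of 94.0 to 138. That level was above that of 98.5% of tested genes. TNFAIP3 followed at 42.8 (35.7 to 50.5) and NFKB2 at 39.7 (33.8 to 48.0) CPM per kilobase, and these neighbours overlapped between libraries. RELB stood at 29.2 (21.8 to 36.8), RELA at 25.0 (21.2 to 28.8) and NFKBIB at 24.9 (20.2 to 30.6) CPM per kilobase, each overlapping its neighbour. NFKBIE at 11.9, NFKB1 at 9.99 and NFKBIZ at 8.71 CPM per kilobase formed a lower tier, in which neighbours again overlapped. REL was lowest at 1.27 (0.742 to 1.67) CPM per kilobase, above 25.2% of tested genes. Gaps without overlap lay between NFKBIA and TNFAIP3, between NFKBIB and NFKBIE, and between NFKBIZ and REL, so levels per length fell into 4 tiers by their ranges over both groups. Without the correction for length 4 of the 10 genes keep their place.

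**Figure D1:**
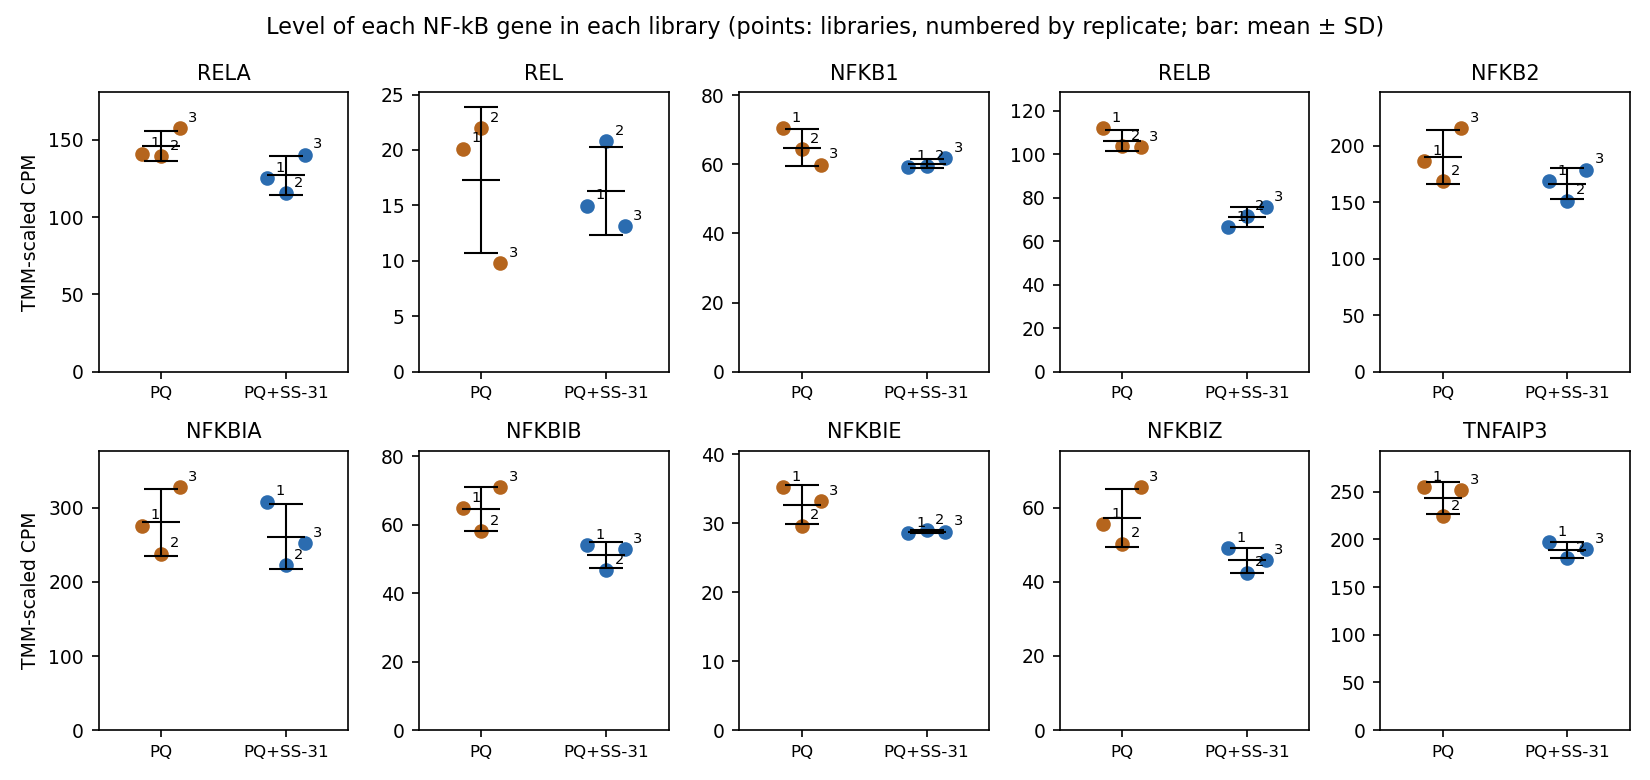
TMM-scaled CPM (vertical axes, each from 0) of each gene in the 3 PQ and the 3 PQ+SS-31 libraries, with points numbered by replicate and bars for the mean ± SD. RELB lies at 103 to 112 CPM with PQ and at 66.3 to 75.7 CPM with PQ+SS-31, while the groups of NFKBIA and REL overlap.

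Set against PQ, the PQ+SS-31 group had a negative fitted log2 fold change for each of the 10 genes, from -0.58 for RELB to -0.08 for REL, with a median of -0.20. Over all 15550 tested genes the median was 0.00 and 49.9% were negative. In edgeR's quasi-likelihood test, with p-values adjusted by Benjamini-Hochberg over all tested genes and called under 0.05, 1 of the 10, RELB, fell and 0 rose. In the whole comparison 0.463% of tested genes were called lower and 0.129% higher. At an unadjusted p of 0.05, 4 of the 10 were lower (RELB, TNFAIP3, NFKBIB and NFKBIZ) and 0 higher, where 5.94% of tested genes were lower and 5.62% higher. In 5 of the 10 genes, those 4 and NFKBIE, all PQ+SS-31 libraries lay below all PQ libraries, which held for 8.86% of tested genes, and in 0 of the 10 were all above, which held for 9.16%. Since the genes were chosen with this contrast known, nothing is read from these shares. In bulk RNA, fewer cells that express a gene and less of its RNA per cell cannot be told apart.

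**Figure D2:**
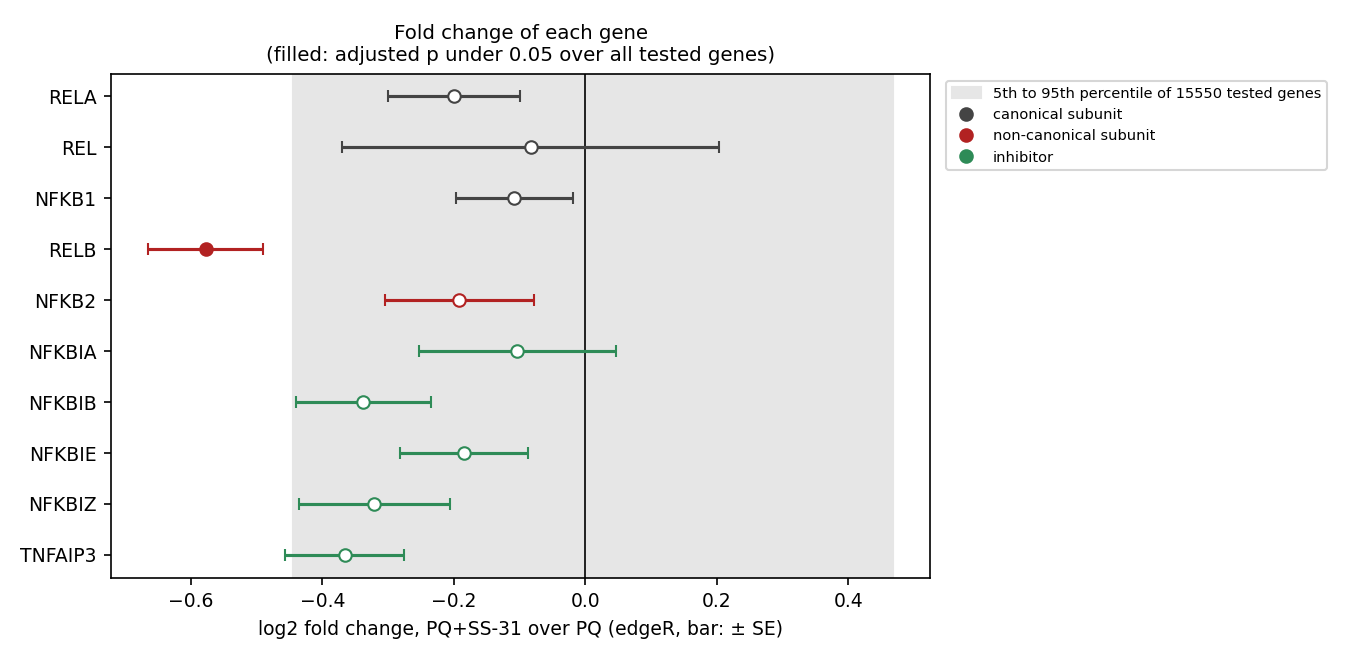
Fitted log2 fold change of PQ+SS-31 over PQ (horizontal axis) with its SE for each gene, coloured by class, with the grey band from the 5th to the 95th percentile of the 15550 tested genes (-0.44 to 0.47). RELB, the filled point at -0.58, lies outside the band and the other genes lie within it.

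Among the canonical subunits none passed the threshold in edgeR, DESeq2 or limma-voom. RELA, the p65 subunit that carries the main transactivation domain (chromosome 11, 65653596 to 65663094, GRCh38, minus strand), stood at 141, 139 and 157 CPM in PQ replicates 1 to 3 and at 125, 116 and 140 CPM in replicates 1 to 3 of the PQ+SS-31 group. PQ+SS-31 replicate 3 lay above PQ replicate 2, so the groups overlapped. The fitted log2 fold change was -0.20 ± 0.10 (SE; edgeR adjusted p = 0.507). NFKB1, the gene for p105 and p50 (chromosome 4, 102501329 to 102617302), stood at 70.4, 64.3 and 59.9 CPM with PQ and at 59.3, 59.5 and 61.7 CPM with PQ+SS-31. The PQ+SS-31 libraries lay close together, at the level of the lowest PQ library (log2 fold change -0.11 ± 0.09, edgeR adjusted p = 0.732).

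REL, the c-Rel subunit best known from lymphocytes (chromosome 2, 60881521 to 60931610), varied most within the groups. Its counts were 339, 347 and 168 reads with PQ and 259, 350 and 225 reads with PQ+SS-31, or 20.1, 21.9 and 9.77 CPM against 14.98, 20.8 and 13.1 CPM. PQ replicate 3 held fewer REL reads than any other library, and PQ+SS-31 replicates 3 and 1 came next. These 3 libraries are the ones on the positive side of the first principal component. The coefficient of variation was 38.0% with PQ and 24.6% with PQ+SS-31, against 0.795% to 16.6% for the other 9 genes in either group. REL also has the largest deposited gene length of the 10, at 13170 bases, and the lowest GC content, at 38.7% of its longest transcript. A trend with GC content and transcript length, fitted in each library over 15541 tested genes, put REL at -0.21 in PQ replicate 3 on the log2 scale, where the measured deviation from the mean of the 6 libraries was -0.72. The trend was not particular to REL. It put RELB at -0.19 in PQ replicate 2 and 0.16 in PQ replicate 3, and NFKB1 at 0.03 in PQ replicate 3. The part of this trend in the levels was not tested. The fitted log2 fold change of REL was -0.08 ± 0.29 (edgeR adjusted p = 0.957), and it was 0.13 without PQ replicate 2 and -0.37 without PQ replicate 3, so no direction is given for REL.

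Of the non-canonical subunits, RELB fell and NFKB2 did not pass the threshold, and the difference between them was not tested. RELB, the partner of p52 (chromosome 19, 45001430 to 45038198), stood at 112, 104 and 103 CPM in PQ replicates 1 to 3 and at 66.3, 71.4 and 75.7 CPM in replicates 1 to 3 of the PQ+SS-31 group. The highest PQ+SS-31 library lay well below the lowest PQ library, and the 2 groups were each tight, with coefficients of variation of 4.61% and 6.60%. RELB fell 1.49-fold (log2 fold change -0.58 ± 0.09, SE, n = 3 a group; edgeR adjusted p = 0.0307) and ranked 48 by p among the 15550 tested genes. The size stayed between -0.63 and -0.53 in refits without 1 library. Its call was lost without PQ replicate 1 (edgeR adjusted p = 0.247) or 2 (0.0922) and without PQ+SS-31 replicate 1 (0.122), 2 (0.188) or 3 (0.169), and held without PQ replicate 3 (0.00994), where 1.28% of tested genes were called lower and 0.79% higher. NFKB2, the gene for p100 and p52 (chromosome 10, 102394110 to 102402529), stood at 186, 168 and 215 CPM with PQ and at 169, 151 and 179 CPM with PQ+SS-31. The groups overlapped, with PQ+SS-31 replicates 1 and 3 above PQ replicate 2. Its log2 fold change of -0.19 ± 0.11 (edgeR adjusted p = 0.581) lay next to that of RELA at -0.20, and in their profiles over the 6 libraries the pair RELA and NFKB2 differed by a root mean square of 0.06 on the log2 scale, against 0.24 for the pair RELB and NFKB2. That places NFKB2 nearer to RELA than to its own partner, as a description over 6 libraries without a test. The value for RELB includes its fall between the groups. Of the other canonical subunits, NFKB1 was 0.17 from NFKB2, and REL was 0.54 from it, farther than RELB. NFKBIB and NFKBIZ were each 0.08 from NFKB2, so no leaning to a class is read from these values.

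The mean log2 CPM of RELB and NFKB2 was 7.15 ± 0.09 in the PQ group and 6.76 ± 0.09 in the PQ+SS-31 group (SD, n = 3), without overlap, and that of RELA, REL and NFKB1 was 5.75 ± 0.21 and 5.64 ± 0.07, with overlap. Of the non-canonical pair, RELB had separate groups (log2 fold change -0.58) and NFKB2 overlapping ones (-0.19). The separation of their mean thus largely restates the RELB values and is not read as a fall of the class. The difference between the classes was taken within each library and was not tested. The non-canonical mean exceeded the canonical mean by 1.30, 1.18 and 1.72 in PQ replicates 1 to 3 and by 1.13, 0.99 and 1.26 in PQ+SS-31 replicates 1 to 3. The groups overlapped, and the means of 1.40 ± 0.28 and 1.13 ± 0.14 (SD, n = 3) differed by -0.27. Without PQ replicate 3, the library with the fewest REL reads, the difference was -0.11. For RELB against RELA alone there were 79.2, 74.3 and 65.5 RELB reads per 100 RELA reads with PQ and 53.0, 61.7 and 53.9 with PQ+SS-31. Every PQ library lay above every PQ+SS-31 library in this ratio, which does not depend on how libraries are scaled. The matching ratio of NFKB2 to NFKB1 overlapped between the groups, at 1.54 ± 0.26 and 1.46 ± 0.10 on the log2 scale (SD, n = 3).

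Per gene length, RELB made up 31.5%, 31.3% and 28.0% of the transcripts of the 5 subunits with PQ, and 23.5%, 26.3% and 24.6% with PQ+SS-31. These groups did not overlap. NFKB2 was the largest share in every library, at 34.4% to 39.65% with PQ and 37.7% to 40.5% with PQ+SS-31. RELA held 22.1% to 23.8% and 23.6% to 25.4%, and REL at most 1.76%. NFKB1 held 7.91% to 9.62% with PQ and 9.73% to 10.6% with PQ+SS-31, a share that was higher in every PQ+SS-31 library although the NFKB1 level itself was not. Shares sum to a fixed total, so a lower RELB share raises those of the others. The summed level of the 5 subunits was 116 ± 6.06 CPM per kilobase in the PQ group and 94.6 ± 6.08 in the PQ+SS-31 group (SD, n = 3).

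**Figure D3:**
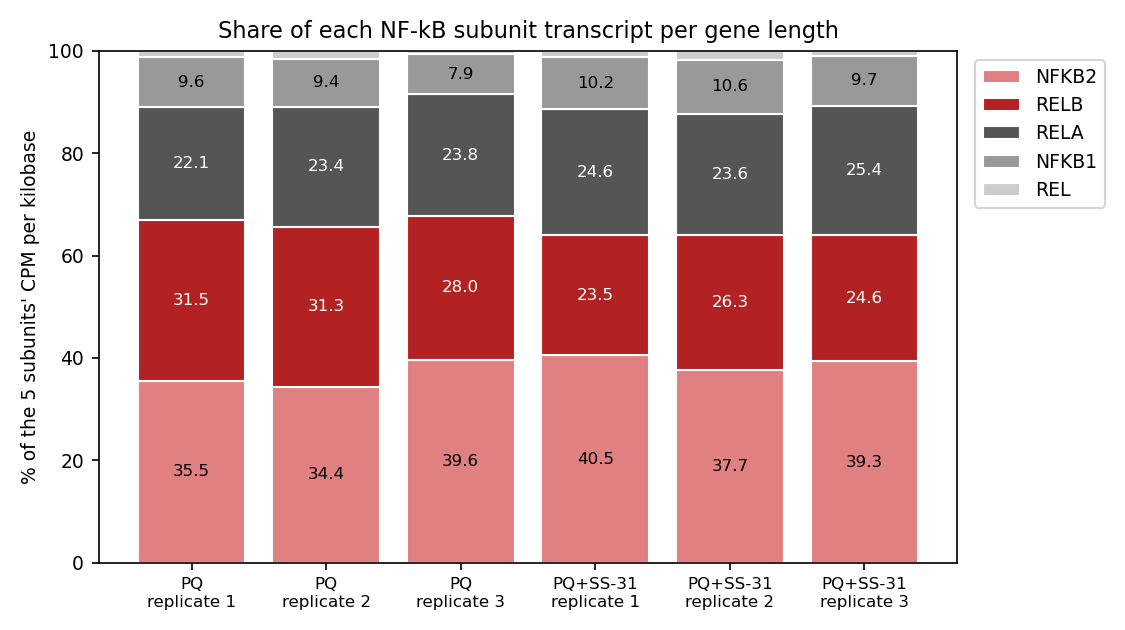
Share of each subunit transcript in the summed CPM per kilobase of the 5 subunits (vertical axis, percent), 1 bar per library, with shares under 4% left without a number. The RELB segment spans 28.0% to 31.5% in the PQ bars and 23.5% to 26.3% in the PQ+SS-31 bars, and NFKB2 is the largest segment in all 6.

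Among the inhibitors, the abundant NFKBIA showed the least separation. NFKBIA (chromosome 14, 35401511 to 35404749) stood at 276, 238 and 328 CPM with PQ and at 308, 223 and 252 CPM with PQ+SS-31. PQ+SS-31 replicate 1 was above 2 of the PQ libraries, and the groups overlapped over most of their range. The log2 fold change was -0.10 ± 0.15 (edgeR adjusted p = 0.877), and it was 0.02 without PQ replicate 3. Within both groups replicate 2 was the lowest. NFKBIA transcripts outnumbered those of RELA per kilobase 4.41 ± 0.44-fold in the PQ group and 4.75 ± 0.81-fold in the PQ+SS-31 group (SD, n = 3), with overlap.

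NFKBIB, NFKBIE and NFKBIZ had non-overlapping groups but did not pass the threshold. NFKBIB, encoding IkBβ, which is resynthesised more slowly (chromosome 19, 38899700 to 38908893), stood at 64.8, 58.2 and 71.1 CPM with PQ and at 54.0, 46.9 and 52.8 CPM with PQ+SS-31. Its log2 fold change was -0.34 ± 0.10 (edgeR adjusted p = 0.236), and it passed with offsets for GC content and length, a setting added after the data were seen (edgeR adjusted p = 0.0367, in a range of 0.0305 to 0.604 over its alternatives). With these offsets 0.977% of tested genes were lower and 0.457% higher. NFKBIB shares 163 bases with SIRT2 on the other strand, which stood at 52.9 CPM, and whether counting used strand is not given, so reads there cannot be assigned. NFKBIE, encoding IkBε, which binds RELA and REL dimers (chromosome 6, 44258166 to 44265788), stood at 35.2, 29.6 and 33.1 CPM with PQ and at 28.5, 28.98 and 28.8 CPM with PQ+SS-31. The groups came within 1 CPM of each other, at 29.6 against 28.98 CPM (log2 fold change -0.18 ± 0.10, edgeR adjusted p = 0.529). NFKBIZ, encoding the nuclear IkBζ, which acts on chromatin as a cofactor for genes such as IL6 (chromosome 3, 101827991 to 101861022), stood at 55.6, 50.3 and 65.5 CPM with PQ and at 49.0, 42.5 and 45.8 CPM with PQ+SS-31. Here too the groups came close, at 50.3 against 49.0 CPM (log2 fold change -0.32 ± 0.11, edgeR adjusted p = 0.311).

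TNFAIP3 encodes A20, a ubiquitin-editing enzyme that ends signalling from the TNF receptor to IKK (chromosome 6, 137867188 to 137883312). It stood at 255, 224 and 252 CPM in PQ replicates 1 to 3 and at 197, 180 and 190 CPM in replicates 1 to 3 of the PQ+SS-31 group. All PQ libraries lay above all PQ+SS-31 libraries, the lowest of them at 224 against 197 CPM. The log2 fold change was -0.37 ± 0.09, second in size to RELB, and did not pass in edgeR (adjusted p = 0.140). DESeq2 called it lower (adjusted p = 0.0192, in a range of 0.0192 to 0.544 over its alternatives), with 2 of the 10 genes lower in DESeq2 where 1.33% of tested genes were lower and 0.791% higher. An antisense gene, AL357060.1, overlaps it at 1.38 CPM.

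Within the groups, the genes differed in which library was highest or lowest. In the PQ group 5 genes were highest in replicate 3 and 4 in replicate 1, and 7 were lowest in replicate 2. In the PQ+SS-31 group 6 were lowest in replicate 2, the library on the other side of the first principal component from its group partners, while RELB, NFKB1 and NFKBIE were lowest in replicate 1. REL ran the other way from most, highest in replicate 2 and lowest in replicate 3 of both groups. The closest profiles were those of NFKBIB and NFKBIZ, which differed by a root mean square of 0.04 on the log2 scale after each gene was centred on its mean, then NFKBIB and TNFAIP3 (0.06) and RELA and NFKB2 (0.06). REL stood farthest from the rest, at 0.38 from NFKB1 and 0.58 from NFKBIA. Pairs that both exclude REL differed by at most 0.33, the value for RELB and NFKBIA.

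**Figure D4:**
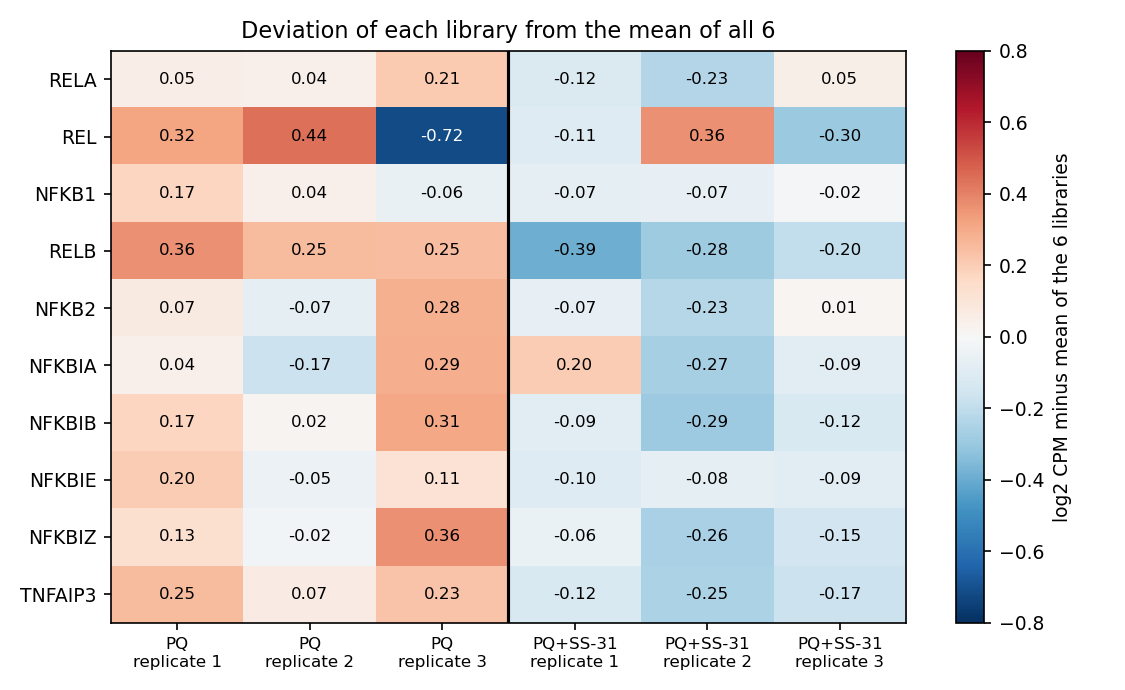
Log2 CPM of each gene minus its mean over the 6 libraries (colour and number), with PQ libraries left of the black line and PQ+SS-31 libraries right of it. RELB and TNFAIP3 are positive in the 3 PQ libraries and negative in the 3 PQ+SS-31 libraries, while REL has its lowest value, -0.72, in PQ replicate 3.

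Genes with profiles most like RELB, NFKB1 and NFKBIA were sought by the same root mean square difference over the 6 libraries, among 10872 genes, protein-coding and with a mean of at least 5 CPM. For RELB they included IGDCC4 (0.03), FAM102A (0.04), TBX3 (0.04) and CCDC112 (0.05), where the median gene differed by 0.33. The log2 fold changes of these genes ran from -0.62 to -0.53, near that of RELB, so their likeness includes the difference between the groups. TBX3 is a T-box repressor. For NFKB1 they were RAB35 (0.01), RBMX2 (0.02), SINHCAF, CCNY and FOXJ3 (each 0.03), with a median of 0.16. NFKB1 itself deviated from its mean by a root mean square of only 0.09, so genes that vary little lie near it. For NFKBIA they were MRPL33, HSD17B14 and IER5 (each 0.03), TCEAL1 and MED6 (each 0.04), with a median of 0.25.

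The rest of the pathway was read from lists of ligands and receptors, adaptors and kinases, brakes and targets, each chosen with earlier results known. Of 23 ligands and receptors 19 were tested, edgeR and DESeq2 called 0 in either direction, and an unadjusted p under 0.05 was reached by 1 higher and 2 lower genes (median log2 fold change 0.04). At that unadjusted p 5.62% of all tested genes were higher and 5.94% lower. TNFRSF1A, the main TNF receptor, was at 330 ± 9.14 CPM in the PQ group and 392 ± 15.1 CPM in the other (SD, n = 3), without passing. The interleukin-1 ligands were scarce, IL1A at 6.96 ± 0.596 and 4.63 ± 1.08 CPM and IL1B at 1.52 ± 0.271 and 0.840 ± 0.2002 CPM. Their receptor IL1R1 was at 43.4 ± 4.02 and 50.4 ± 2.95 CPM.

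Of 21 adaptors and kinases of the canonical arm, 1 fell and 0 rose, with a median log2 fold change of -0.06. Over all tested genes 0.463% were called lower and 0.129% higher. The gene that fell was IRAK2, a kinase of the interleukin-1 receptor complex, from 143, 131 and 154 CPM to 99.3, 79.8 and 92.5 CPM (edgeR adjusted p = 0.0412). That call was absent with upper-quartile factors or library size alone, where 0 of the 21 were called, and in 5 of the 6 refits without 1 library, all but that without PQ replicate 3. RBCK1, the HOIL-1 subunit of the linear ubiquitin ligase, was at 317 ± 32.7 and 241 ± 11.9 CPM, and the IKK-related kinases did not pass, TBK1 at 64.1 ± 4.41 and 53.5 ± 0.468 CPM and IKBKE at 13.8 ± 0.403 and 17.4 ± 1.22 CPM. Of the 6 genes of the non-canonical arm edgeR and DESeq2 called 0, with 1 gene higher and 1 gene lower at p under 0.05 before adjustment (median -0.10). Before adjustment 5.62% of all tested genes were higher and 5.94% lower. MAP3K14, which encodes the non-canonical kinase NIK, stood at 55.4 ± 0.829 CPM with PQ and 64.8 ± 3.78 CPM with PQ+SS-31 (log2 fold change 0.23 ± 0.08, edgeR adjusted p = 0.334). All its PQ+SS-31 libraries lay above all its PQ libraries, which held for 9.16% of tested genes. BIRC2 (cIAP1), a ligase that keeps NIK low, was at 91.0 ± 6.20 and 75.5 ± 4.12 CPM, BIRC3 (cIAP2) at 288 ± 28.0 and 252 ± 12.6 CPM, and CHUK, encoding IKKα, at 71.9 ± 4.15 and 65.1 ± 1.92 CPM.

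Of 17 other IkB-like proteins and brakes edgeR and DESeq2 called 0, with 0 in either direction at an unadjusted p of 0.05 and a median of -0.08. The shares of all tested genes at that unadjusted p were 5.62% higher and 5.94% lower. TNIP2 (ABIN-2) was at 56.5 ± 3.41 and 49.5 ± 3.20 CPM, and the small GTPases that bind IkB proteins at 77.2 ± 3.71 and 69.0 ± 4.04 CPM for NKIRAS2 and 14.7 ± 0.633 and 12.8 ± 0.800 CPM for NKIRAS1. NFKBIL1, an IkB-like gene, was at 13.9 ± 0.809 and 11.8 ± 1.64 CPM. Of 38 tested textbook targets 3 fell and 0 rose, with a median of -0.17, 27 negative and 11 positive. Over all tested genes 0.463% were called lower. The count was 0 without PQ replicate 1 or without any single PQ+SS-31 library, 1 without PQ replicate 2, and 3 without PQ replicate 3. The 3 were KLF6, a zinc finger factor (146 ± 9.93 to 78.4 ± 4.49 CPM, log2 fold change -0.90), the neutrophil chemokine CXCL8 (-0.67) and PTGS2, the inducible prostaglandin synthase (-0.51), each also controlled by other factors. CXCL5, a related chemokine, did not pass, at 1454 ± 87.9 and 1135 ± 86.3 CPM (edgeR adjusted p = 0.197).

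**Figure D5:**
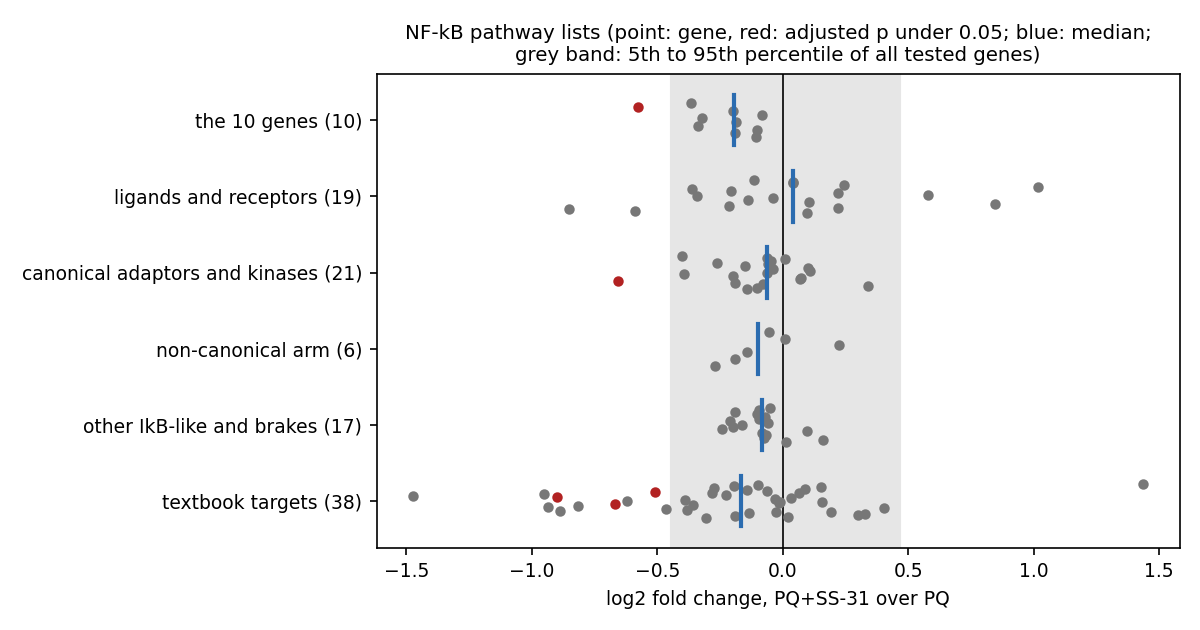
Log2 fold change of PQ+SS-31 over PQ (horizontal axis) of each tested gene in the 10 genes and the pathway lists, with red points for edgeR adjusted p under 0.05, blue lines for list medians and a grey band from the 5th to the 95th percentile of all tested genes. Medians run from -0.20 for the 10 genes to 0.04 for ligands and receptors, and 5 points are red.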

How the data were processed

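RNA sequencing counts of 6 A549 libraries were used, all from 1 table. The authors deposited raw counts per gene, whole numbers with no normalization. The submitters' processing notes name CASAVA, DESeq2 1.20.0, featureCounts 1.5.0-p3 and HISAT2 2.0.5, with no role given, and the mouse build mm10. The 58735 gene IDs of the table are nevertheless human, each at its GENCODE 29 position on GRCh38, whose coordinates are used. Strandedness and kit are not given in the sources used here. Columns were matched to titles by group letter and replicate number, and 0 sample columns were left out. Gene lengths are other values of the deposited table.

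Genes were filtered with filterByExpr by group and scaled by TMM. edgeR 4.0.16 (R 4.3.3) tested PQ+SS-31 against PQ with its quasi-likelihood test and Benjamini-Hochberg adjustment, and SE were derived from the test statistic. Log2 CPM used a prior count of 2. Pairs of libraries of 1 group differed beyond sampling noise (chi-square per degree of freedom 7.32 to 35.6), so all 6 were counted. The alternatives were other scaling factors and filters, DESeq2 1.42.0, limma-voom 3.58.1, the replicate number as a block, a prior count of 0.5, and leaving out each library. GC and length offsets (loess, span 0.5) were chosen after seeing the data.

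The 10 genes and all lists were chosen with earlier results of these data known. Named beside the 10 are, per pathway list, the 4 genes of smallest p and, for RELB, NFKB1 and NFKBIA, the 5 closest profiles, of which 1 is not reported here. The protein comparison planned at the start was not made.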

Additional observations from a re-analysis of the deposited data

How the results depend on the processing

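RELB was lower and past the threshold in all 10 alternatives other than leaving out a library, with log2 fold changes of -0.64 to -0.56 and adjusted p of 2.54e-05 to 0.0326. In these alternatives all 100 fitted values of the 10 genes kept their direction and 4 gained a call, those of NFKBIB and TNFAIP3. In the 6 refits without 1 library 0 to 1 of the 10 genes were called lower, 5 values lost a call, all of RELB, and 4 changed sign: REL ranged from -0.37 to 0.13, and NFKBIA from -0.24 to 0.02 (0.0179 without PQ replicate 3). The non-canonical minus canonical difference ranged from -0.38 to -0.11. Refits have fewer libraries, so a lost call need not be a smaller change.

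Over all genes 20 were called higher and 72 lower, against 0 to 125 and 0 to 203 without 1 library, 156 and 237 with no filter, 123 and 207 in DESeq2, 71 and 152 with GC and length offsets, and 153 and 256 with those and the block. Library size alone gave 13 higher. Of the 10 genes DESeq2 called 2 lower, GC and length offsets 2, and offsets with the block 3. Of the canonical adaptors and kinases 1 was lower, against 0 with upper-quartile factors or library size alone, 2 in DESeq2, 2 with either kind of offsets, and 0 to 1 without 1 library. Of the targets 3 were lower, against 7 (and 1 higher) with no filter, 6 (and 1 higher) with offsets and the block, and 0 to 3 without 1 library. Among ligands and receptors 1 was lower with offsets and the block. Without length correction 4 of the 10 genes kept their place in the order of levels.

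Same-numbered replicates deviated from their group means with correlations of -0.09, 0.39 and 0.19, and other pairs with -0.46 to 0.29. Not every library correlated best with its own number. Because deviations within a group cancel out, these few values cannot decide whether the numbers pair the samples. The labels do not say so either. The replicate block gave 66 genes higher and 134 lower and called 1 of the 10 genes, RELB. REL had the fewest reads of the 10 genes, 168 to 350 per library.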
